A study of Mus musculus with 16 samples.

Results

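The 8 genes described here are Calca, Calcb, Cck and Adm, which encode secreted peptides or their precursors, and Calcrl, Ramp1, Ramp2 and Ramp3, which encode the parts of the receptors for the calcitonin gene-related and adrenomedullin peptides. They were chosen by their measured values, since Calca and Cck were already known to be higher in the knockout hearts of this series, and the other 6 were added as their relatives and receptor parts. The members are 8 of the 20056 genes that could be tested, and the arrays held 12 probes for them, with more than 1 probe for 4 genes. The genotype difference of every member is therefore given as a description, with no p-value, and so is the difference between ages of Calca and Cck. Where these differences are counted among the called genes, the count only accounts for every member, and nothing is read from it.

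RNA came from whole hearts of male C57BL/6 mice in 4 groups of 4. The cardioMRKO mice carried a floxed mineralocorticoid receptor gene (Nr3c2) and Cre driven by the cardiomyocyte promoter αMHC, a design that removes the receptor from cardiomyocytes and leaves it in the other cells of the heart. The MRflox mice were Cre-negative littermates with the same floxed gene, so an effect of Cre itself and an effect of the missing receptor cannot be told apart. Hearts of each genotype were taken at an age of 1 month or 2 months. Every group was run on a separate slide, which makes slide effects and group effects inseparable here, and p-values measure only the spread between these samples.

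The Calca gene gives rise, by alternative splicing, to calcitonin, which lowers blood calcium, and to α calcitonin gene-related peptide (CGRP), a strong vasodilator of sensory nerve endings. Calcb encodes β CGRP, and Adm encodes adrenomedullin, a vasodilator made by endothelium, muscle and stromal cells and needed for lymphatic and vascular development. All of these but calcitonin act on the G protein-coupled receptor Calcrl, and the single-pass partners set its preference: Ramp1 makes it a CGRP receptor, and Ramp2 or Ramp3 makes it an adrenomedullin receptor. Cck encodes cholecystokinin, a gut hormone and neuropeptide that acts on the separate receptors Cckar and Cckbr.

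The stretches before the annotated starts of the 2 genes that chose the set are shown, because both genes were higher in cardioMRKO hearts. Both come from the RefSeq promoter table of build GRCm38.p6, which held 6 of the 8 members, all but Calcb and Ramp2. Each gives the 250 bases before the start, on the gene's own strand, 5′ to 3′, with capitals at TGCGTCA on either strand (a form of the cyclic AMP response element) and at CACGTG (an E-box). Calca lies on the minus strand at chr7:114636358-114636607 and Cck on the minus strand at chr9:121495695-121495944.
Calca: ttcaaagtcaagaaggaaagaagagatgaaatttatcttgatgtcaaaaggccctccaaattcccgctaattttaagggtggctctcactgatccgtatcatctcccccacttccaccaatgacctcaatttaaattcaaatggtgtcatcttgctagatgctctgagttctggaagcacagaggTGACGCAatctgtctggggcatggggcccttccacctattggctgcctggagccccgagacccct
Cck: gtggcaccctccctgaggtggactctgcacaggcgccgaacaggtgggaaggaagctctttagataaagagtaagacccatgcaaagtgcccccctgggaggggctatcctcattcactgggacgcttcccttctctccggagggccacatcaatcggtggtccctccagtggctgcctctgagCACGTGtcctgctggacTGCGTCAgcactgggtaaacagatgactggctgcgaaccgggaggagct

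TGCGTCA was picked after these sequences were read. It began 65 bases before the start of Calca, on the opposite strand, and 49 bases before that of Cck, on the gene's strand, and it was in none of the other 4 members in the table. Of all 32851 promoters, cut to the same length, 1.75% held it on either strand. CACGTG began 66 bases before the start of Cck and was in 6.02% of promoters. TGACGTCA, the full cyclic AMP response element, and TGTTCT, the half-site bound by the mineralocorticoid and other steroid receptors, were each in none of the 6 members, against 1.55% and 16.1% of promoters. These are matches of letters in a window of this length and show no binding.

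Levels are given on the log2 scale, as the processed signal of a probe divided by its array's 75th percentile of signals, so that a level of 0 is a probe at that percentile. That percentile was a signal of 527 to 1091 over the 16 arrays, and 62.5% to 71.6% of probes were well above background on an array, the dimmest of them at a signal of 6.84 to 14. The Nr3c2 probe had levels of −4.76 to −4.22 in MRflox and −4.79 to −4.53 in cardioMRKO at 1 month, and of −3.89 to −3.44 and −4.44 to −3.90 at 2 months. Whether it lies inside the deleted part is not known here, so it is no check of the deletion. Of all genes, 19 (0.0947%) passed limma's test at a Benjamini-Hochberg adjusted p of 0.05 (here "called") between genotypes at 1 month and 707 (3.53%) at 2 months. Between ages 4543 (22.7%) passed in MRflox, 16.7% higher and 5.91% lower at 2 months, and 2055 (10.2%) in cardioMRKO, 5.32% higher and 4.93% lower. Without scaling between arrays the share of called genes that were higher went from 43.8% to 94.3% between genotypes at 2 months, from 73.9% to 53.4% between ages in MRflox and from 51.9% to 78.3% in cardioMRKO. Without that scaling the median gene also moved by 0.31 between genotypes at 2 months, by −0.17 between ages in MRflox and by 0.11 in cardioMRKO.

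Calca was higher in cardioMRKO hearts at both ages, and most so at 1 month. At 1 month the signal of the probe used for the gene (RefSeq NM_007587) was 9.89, 13.5, 13.7 and 10.7 on the MRflox arrays and 35.7, 33.0, 52.7 and 25.7 on the cardioMRKO arrays. The MRflox arrays lay at the edge of detection, with the array of replicate 4 not well above background, and every cardioMRKO array lay above every MRflox array. The mean level was −5.89 ± 0.13 (SD, n = 4) in MRflox and −4.35 ± 0.38 (SD, n = 4) in cardioMRKO, a difference of 1.54 (SE 0.173, 95% interval 1.17 to 1.91) or 2.90-fold. The scanner software's own error of the signal was 22.0% (median) in MRflox and 12.9% in cardioMRKO at this age. Without cardioMRKO replicate 3, the array with the highest signal, the difference was 1.35.

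At 2 months the Calca signal was 30.5, 27.7, 29.5 and 25.5 in MRflox and 44.9, 56.8, 64.4 and 43.4 in cardioMRKO. The groups again did not overlap, but MRflox had come up to the range of the 1-month cardioMRKO hearts. The mean level was −4.40 ± 0.14 (SD, n = 4) in MRflox and −3.92 ± 0.26 (SD, n = 4) in cardioMRKO, a difference of 0.48 (SE 0.173, 95% interval 0.11 to 0.85) or 1.39-fold. As a description with no test, the genotype difference at 2 months minus that at 1 month was −1.06. Ordered by level, MRflox at 1 month was lowest, MRflox at 2 months and cardioMRKO at 1 month overlapped, and cardioMRKO at 2 months overlapped with cardioMRKO at 1 month but not with MRflox at 2 months.

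The second Calca probe (NM_001033954) was near background and entered no test, since no group had it well above background on all 4 arrays. At 1 month it was well above background on no array. On the 2-month MRflox arrays its signal was 2.02, 8.28, 6.13 and 7.63, well above background on 1 array, and on the cardioMRKO arrays 10.2, 14.2, 6.59 and 29.3, well above background on 3 arrays. Replicate 4 of cardioMRKO was the brightest of all 16. No lower bound of a fold between ages could be had from this probe, as its 2-month means did not exceed the background level of the 1-month arrays. At 1 month the second probe thus gave no reading to set beside that of the first.

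**Figure D1:**
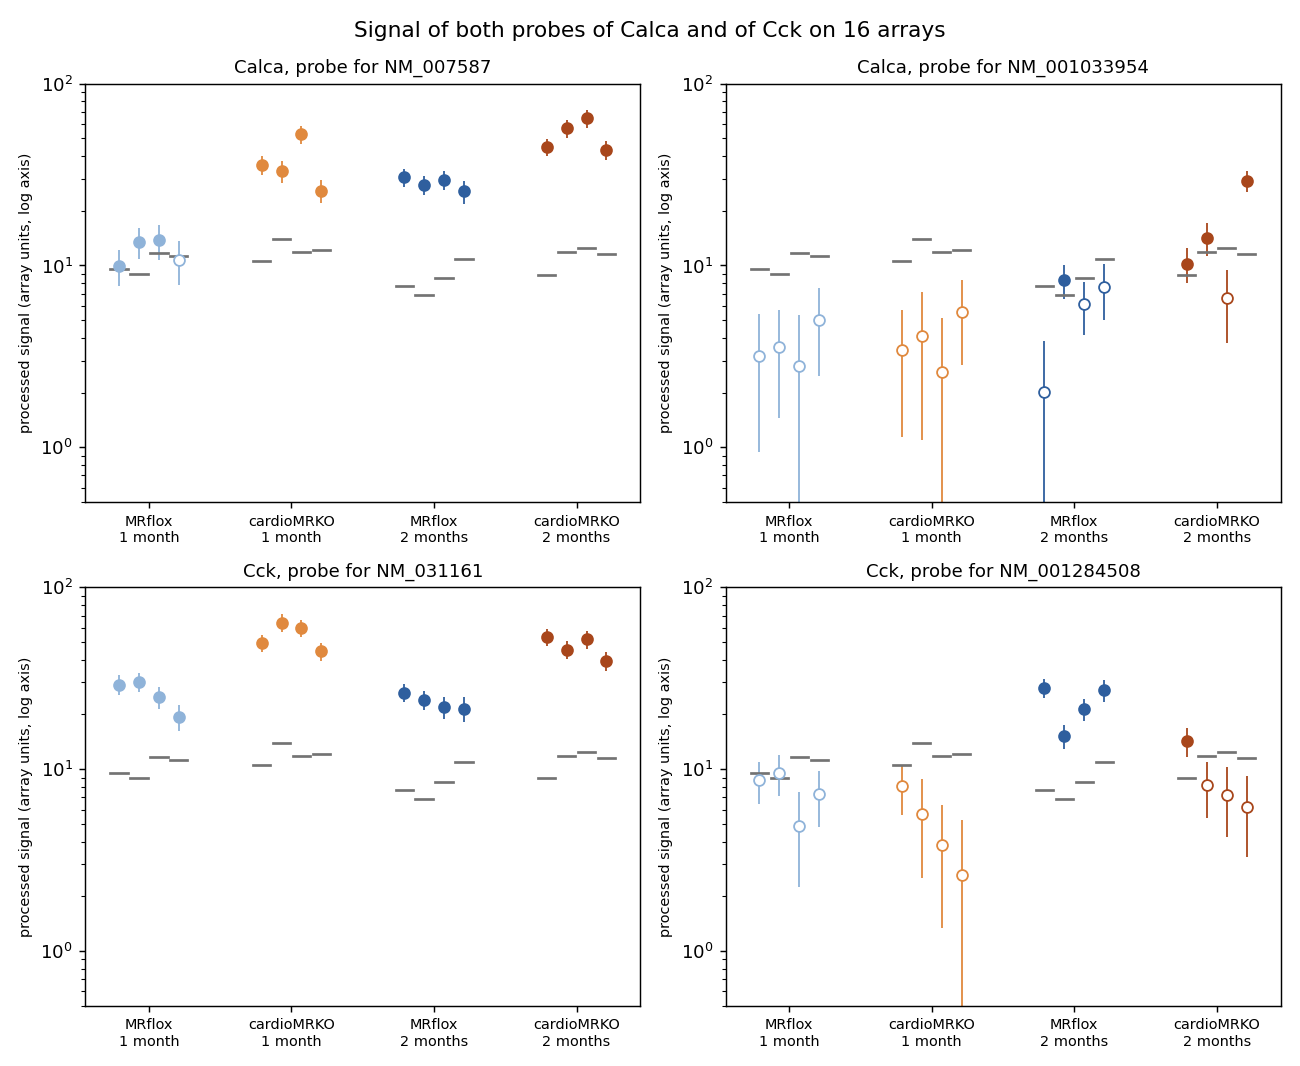
Processed signal (log axis) of both probes of Calca and of both probes of Cck on each of the 16 arrays, 4 per group. Filled points are well above background and open points are not, vertical lines are the scanner software's error, and grey dashes mark the dimmest signal well above background on that array; the first Calca probe is at 9.89 to 13.7 in MRflox at 1 month and at 25.5 or more in every other group.

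Cck was higher in cardioMRKO hearts at both ages by the probe used for the gene (NM_031161). The second probe of the gene gave the opposite order at 2 months and was not detected at 1 month. With the probe used the 1-month signal was 29.2, 30.2, 24.8 and 19.5 in MRflox and 49.6, 64.1, 59.8 and 44.4 in cardioMRKO. The 2-month signal was 26.4, 23.9, 21.9 and 21.5 in MRflox and 53.1, 45.5, 51.9 and 39.2 in cardioMRKO. All 16 arrays were well above background, and at each age the 4 cardioMRKO arrays lay above the 4 MRflox arrays. The mean level went from −4.78 ± 0.27 (SD, n = 4) to −3.75 ± 0.18 (SD, n = 4) at 1 month, a difference of 1.03 (SE 0.148, 95% interval 0.71 to 1.35) or 2.04-fold. At 2 months it went from −4.67 ± 0.09 (SD, n = 4) to −4.06 ± 0.24 (SD, n = 4), a difference of 0.62 (SE 0.148, 95% interval 0.30 to 0.93) or 1.53-fold. By this probe the levels fell into 2 tiers, both MRflox groups below both cardioMRKO groups, with overlap within each tier.

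The second Cck probe (NM_001284508) was well above background on all 4 MRflox arrays at 2 months, where its signal was 28.1, 15.2, 21.3 and 27.1, and on 1 other array, cardioMRKO replicate 1 at 2 months, at 14.3. The other 3 cardioMRKO arrays of that age were at 8.21, 7.25 and 6.21, so that the groups did not overlap and cardioMRKO was lower by this probe. With the 3 undetected arrays at the dimmest signal well above background, MRflox was at least 2.35-fold higher. Both 1-month groups were not well above background on any array, at signals of 4.89 to 9.56 in MRflox and 2.62 to 8.04 in cardioMRKO. MRflox was at least 2.51-fold higher at 2 months than at 1 month by this probe, a bound that sets the 1-month arrays at the dimmest signal well above background. When the probes of the gene were averaged, the Cck difference between genotypes was 0.15 at 1 month and −0.58 at 2 months, so the direction at 2 months rests on which probe stands for the gene. Which part of the transcripts each probe covers is not known here.

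Of the 8 members, 2 were among the called genes between genotypes at 1 month, Calca and Cck, and 1 at 2 months, Cck, beside 0.0947% and 3.53% of all genes. Calca and Cck were also the 2 members whose groups did not overlap at each age, beside 7.63% of genes at 1 month and 10.2% at 2 months. These contrasts chose the members, so nothing is read from the counts.

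The other peptide genes showed no such separation between genotypes. Calcb, the β CGRP gene, was near background, with signals of 16.2 to 26.4 in MRflox and 11.7 to 27.6 in cardioMRKO at 1 month, and of 8.73 to 16.5 and 15.8 to 38.1 at 2 months. The groups overlapped at both ages, with differences of −0.18 (95% interval −0.71 to 0.36) and 0.28 (95% interval −0.26 to 0.82). Adm, the adrenomedullin gene, was far above background on every array, with signals of 868, 1188, 1242 and 1120 in MRflox and 1225, 1408, 1406 and 931 in cardioMRKO at 1 month. At 2 months they were 973, 989, 962 and 1100 in MRflox and 1021, 949, 1843 and 1044 in cardioMRKO. The high signal of 1843 was on the array with the highest 75th percentile, and its scaled level was 0.76, inside the range of the 2-month MRflox group. The Adm differences between genotypes were 0.11 (95% interval −0.16 to 0.39) and −0.18 (95% interval −0.46 to 0.10).

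**Figure D2:**
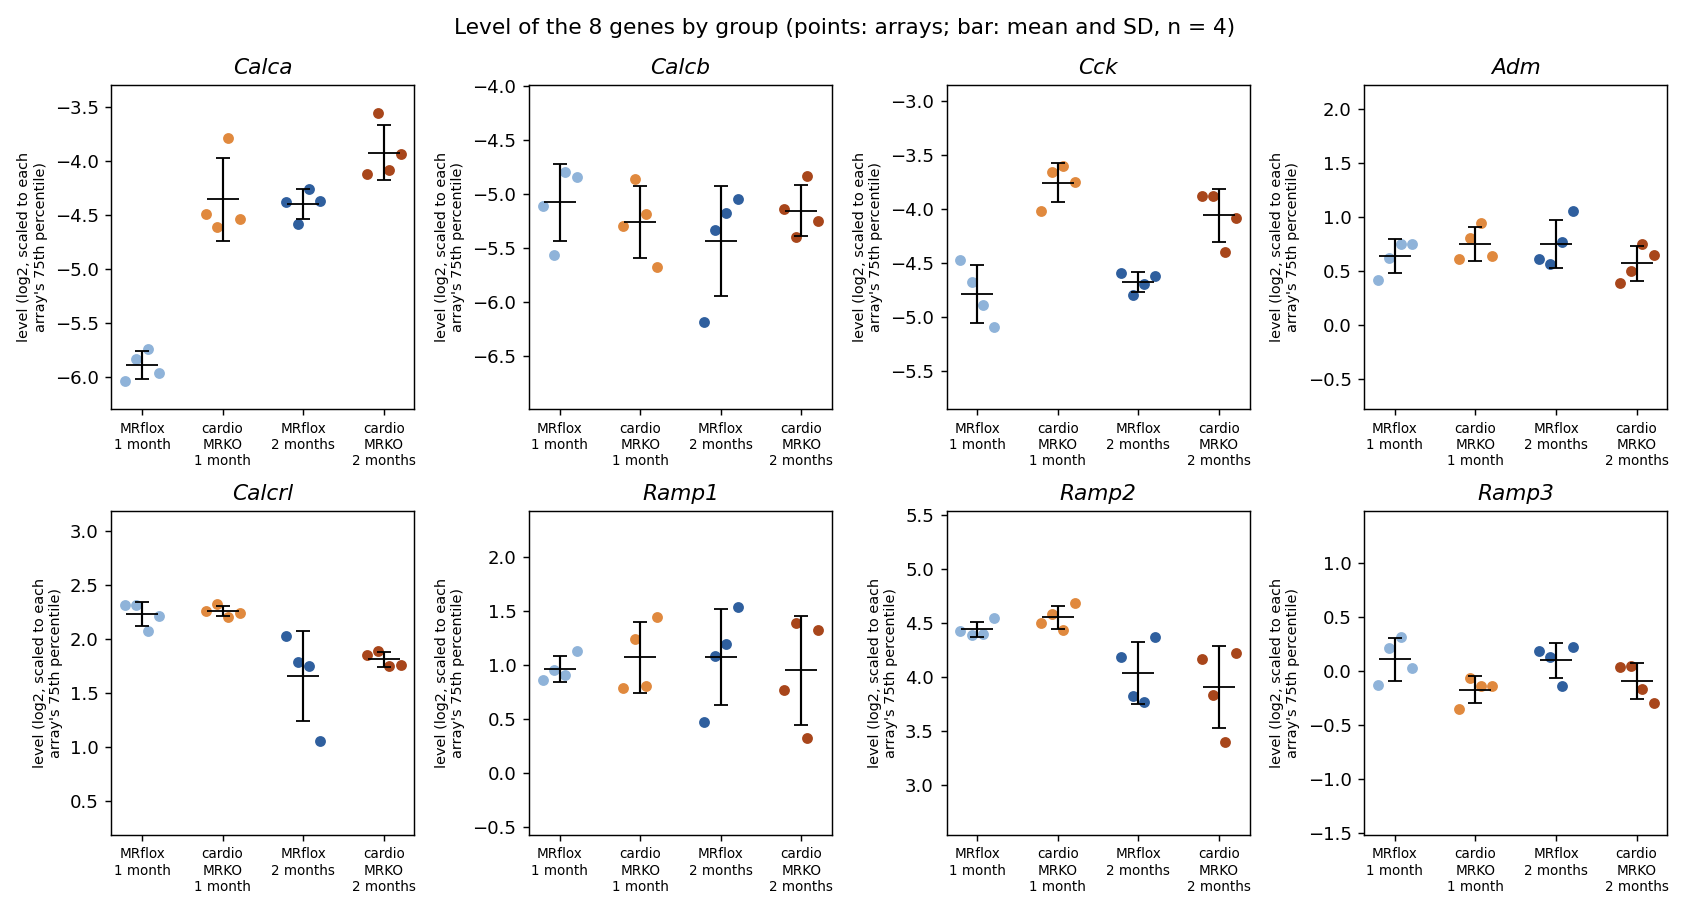
Level of each of the 8 genes on the log2 scale, 0 being the array's 75th percentile, by group; points are arrays, and the bar with whiskers is the mean and SD of 4 arrays. Every panel spans 3 log2 units; Calca and Cck separate the genotypes at both ages, and Calcrl and Ramp2 are lower in both genotypes at 2 months than at 1 month.

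By the probe used for each gene, the receptor parts were all well above background on every array, and none separated the genotypes at either age. Calcrl, the shared receptor, differed by 0.03 (95% interval −0.31 to 0.36) at 1 month and 0.16 (95% interval −0.17 to 0.49) at 2 months. Ramp1, the CGRP receptor partner, had signals of 1177 to 1490 and 1267 to 1902 at 1 month and 881 to 1525 and 1324 to 1750 at 2 months in MRflox and cardioMRKO. It differed by 0.11 (95% interval −0.43 to 0.65) and −0.12 (95% interval −0.66 to 0.42). Its SD among arrays of a group, 0.38 (pooled), was the widest of the members, and higher than that of 72.7% of genes. Ramp2, an adrenomedullin receptor partner, differed by 0.11 (95% interval −0.25 to 0.48) and −0.13 (95% interval −0.50 to 0.24).

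Ramp3, the other adrenomedullin partner, had overlapping groups at both ages. Its 1-month signal was 590, 892, 915 and 677 in MRflox and 626, 768, 657 and 542 in cardioMRKO. At 2 months it was 722, 724, 512 and 613 in MRflox and 799, 687, 969 and 541 in cardioMRKO. The difference was −0.28 (95% interval −0.55 to −0.02) at 1 month and −0.19 (95% interval −0.46 to 0.07) at 2 months. The second probes of Calcrl and Ramp1 gave differences of 0.35 and 0.18 at 1 month and of 0.50 and −0.42 at 2 months, with overlapping groups each time. These second probes were dim for Calcrl, at signals of 9.72 to 44.3, and moderate for Ramp1, at 72.1 to 155.

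**Figure D3:**
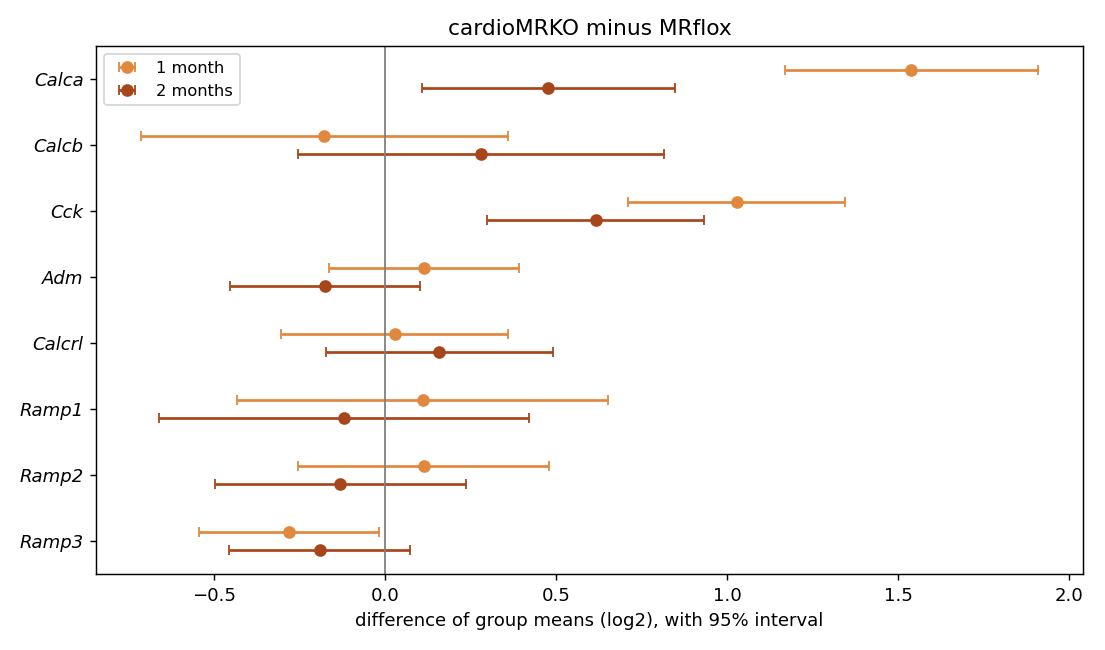
Difference between cardioMRKO and MRflox of the 8 genes on the log2 scale, at 1 month and at 2 months, as points with 95% intervals from the fit of all 16 arrays. The intervals of Calca and Cck lie above 0 at both ages; that of Ramp3 lies just below 0 at 1 month, and those of the other 5 genes include 0.

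Between 1 and 2 months the receptor parts Calcrl and Ramp2 were lower, each past the test in 1 genotype. Calcrl had signals of 3236, 3838, 3114 and 3091 in MRflox at 1 month and 2603, 2298, 1902 and 1099 at 2 months. In cardioMRKO the signals were 3843, 4034, 3355 and 2837 at 1 month and 2816, 2478, 3682 and 2254 at 2 months. On the scaled levels the 4 arrays at 2 months lay below the 4 at 1 month in both genotypes, although the raw signals of cardioMRKO overlapped. Calcrl fell by 0.58 in MRflox (SE 0.155, limma adjusted p = 0.0155, exact permutation p = 0.0286). In cardioMRKO the difference was −0.44 (SE 0.155, limma adjusted p = 0.0864, exact permutation p = 0.0286).

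The array of MRflox replicate 4 at 2 months had both the lowest Calcrl signal, 1099, and the lowest spike-in signal of all 16, with a deviation of −0.77 on the log2 scale. Without it Calcrl fell by 0.38 in MRflox (adjusted p = 0.0109), and the genotype difference at 2 months was −0.04 in place of 0.16. The fall in MRflox did not pass with only the 8 arrays of the comparison (adjusted p = 0.0874) or with the mean level of airway genes as a covariate (−0.49, adjusted p = 0.247). That airway mean was −6.16 to 2.93 in MRflox at 1 month and 2.25 to 5.47 at 2 months, so it largely went with age. For any gene, a call between ages lost with this covariate cannot tell airway level from age. In cardioMRKO Calcrl passed with only the 8 arrays (adjusted p = 0.0165), with array weights (adjusted p = 0.00387) and after removal of this array together with cardioMRKO replicate 3 at 2 months, the other array of low spike-in signal (adjusted p = 0.00612). The dim second probe of Calcrl differed by −0.41 in MRflox (adjusted p = 0.275) and −0.26 in cardioMRKO (adjusted p = 0.600), with overlapping groups.

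Ramp2, the adrenomedullin partner that vessels need in development, had signals of 13933, 16172, 15571 and 15570 in MRflox at 1 month and 11581, 9442, 7716 and 10891 at 2 months. In cardioMRKO they were 18159, 19410, 15775 and 15381 at 1 month and 14051, 9536, 11499 and 12380 at 2 months. In both genotypes the 2-month arrays lay below the 1-month arrays. Ramp2 fell by 0.65 in cardioMRKO (SE 0.171, limma adjusted p = 0.0275, exact permutation p = 0.0286). The lowest level of that group at 2 months, 3.40, was on replicate 3, the array with the highest 75th percentile. Without that array the difference was −0.48. In MRflox the difference was −0.40 (SE 0.171, limma adjusted p = 0.109, exact permutation p = 0.0286). The call in cardioMRKO ended in 7 settings: without a filter on dim probes, with only 8 arrays, without scaling, without both 1-month arrays of high airway markers, and without cardioMRKO replicate 2 or 4 at 1 month or replicate 2 at 2 months (adjusted p 0.0525 to 0.0747). In MRflox Ramp2 passed with quantile normalization (−0.47, adjusted p = 0.0324), with array weights (−0.54, adjusted p = 0.0022), with no scaling (−0.64, adjusted p = 0.0117) and without replicate 4 at 2 months (−0.51, adjusted p = 0.0497).

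The change with age was not shown to differ between genotypes for these receptor parts. The difference between the genotypes' changes was 0.13 (95% interval −0.34 to 0.60, adjusted p = 0.859) for Calcrl and −0.24 (95% interval −0.76 to 0.27, adjusted p = 0.756) for Ramp2. For 9 markers of vascular endothelium, where Calcrl and Ramp2 are abundant, the median difference was −0.27 in MRflox and −0.28 in cardioMRKO, against 0.07 and 0.00 for all genes. Of these 9, 1 was called lower in MRflox (Esam, an endothelial adhesion molecule), beside 5.91% of all genes. In cardioMRKO 2 of the 9 were called lower (Cdh5, the endothelial cadherin, and Esam), beside 4.93% of all genes. None of the 9 was called higher. All 9 were well above background on every array, and their summed level was 81.5 to 96.1 and 75.4 to 93.6 times the 75th percentile in MRflox at 1 and 2 months, and 78.4 to 87.7 and 68.5 to 78.2 times in cardioMRKO. For 6 fibroblast markers the median difference was −0.27 in MRflox and −0.34 in cardioMRKO. In each genotype 2 were called lower, Lum and the collagen gene Col1a1, beside the same 5.91% and 4.93% of all genes. For 6 smooth muscle markers the median was −0.01 and 0.33. Of these, Acta2, the smooth muscle actin, was called lower in both (−1.02 in MRflox and −1.03 in cardioMRKO) and Smtn in MRflox (−0.47), beside the same shares. Their summed level was 90.6 to 108 and 49.5 to 73.6 times the 75th percentile in MRflox at 1 and 2 months, and 104 to 113 and 52.8 to 89.8 times in cardioMRKO, with no overlap of the ages. For 7 lymphatic endothelium markers the median was 0.22 and 0.35, and 1 was called higher, Reln in MRflox (0.58), beside 16.7% of all genes. In RNA of whole hearts fewer cells of a type and less RNA per cell cannot be told apart, and the part of any of these markers in the result was not tested.

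The other 4 of the 6 members not used to choose the set did not pass the test between ages. In MRflox the differences were −0.36 for Calcb, 0.12 for Adm, 0.11 for Ramp1 and −0.01 for Ramp3, with adjusted p of 0.335 to 0.966 and exact permutation p of 0.314 to 0.914. In cardioMRKO they were 0.10 for Calcb, −0.18 for Adm, −0.12 for Ramp1 and 0.08 for Ramp3, with adjusted p of 0.445 to 0.854 and exact permutation p of 0.200 to 0.714. The arrays of the ages overlapped for all 4 genes in both genotypes. The interval of Calcb in MRflox, −0.89 to 0.18, still included a fall as large as that of Calcrl.

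Calca differed between ages by 1.49 (95% interval 1.12 to 1.86) in MRflox, higher at 2 months with no overlap, and by 0.43 (95% interval 0.06 to 0.80) with overlap in cardioMRKO. With normexp background correction these values were 0.48 and 0.032. Cck differed by 0.11 (95% interval −0.21 to 0.43) in MRflox and by −0.30 (95% interval −0.62 to 0.02) in cardioMRKO. With the mean of the gene's probes these values were 0.97 and 0.24, and in MRflox Cck was at −0.18 with quantile normalization and −0.13 without scaling. These values share their arrays with the genotype comparisons and are descriptions. Counting all 8 members, 2 were among the called genes between ages in MRflox (Calca and Calcrl) and 1 in cardioMRKO (Ramp2), beside 22.7% and 10.2% of all genes. The ages did not overlap for 3 members in MRflox and 2 in cardioMRKO, beside 28% and 19.9% of genes. Of the 6 members other than Calca and Cck, 1 was called in each genotype, both times lower, beside the 5.91% and 4.93% of all genes called lower.

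**Figure D4:**
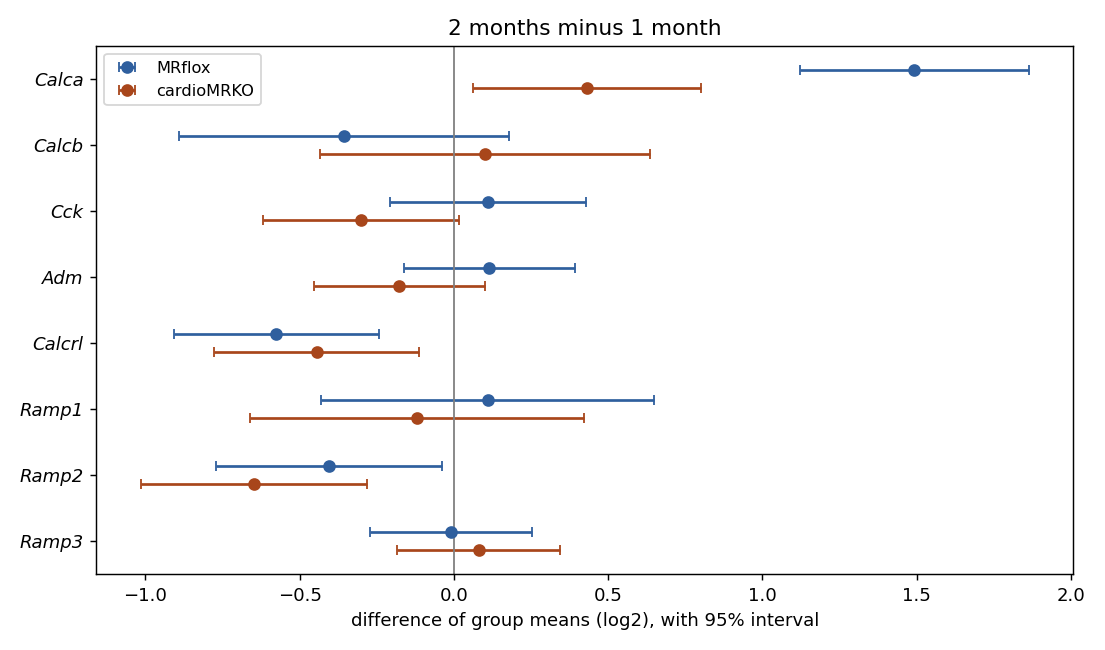
Difference between 2 months and 1 month of the 8 genes on the log2 scale, in MRflox and in cardioMRKO, as points with 95% intervals from the fit of all 16 arrays. Calcrl and Ramp2 lie below 0 in both genotypes, with differences of −0.40 to −0.65, and Calca in MRflox lies highest, at 1.49.

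The receptors and the relative of cholecystokinin were dim and moved with age in MRflox. The gastrin gene Gast, whose peptide shares its active end with cholecystokinin, had signals of 12.7 to 16.9 in MRflox at 1 month and 23.5 to 34.3 at 2 months, and rose by 1.18 (SE 0.190, adjusted p = 0.000821). Cckbr, the receptor for cholecystokinin and gastrin, had signals of 103, 46.7, 36.5 and 28.4 at 1 month and 159, 104, 95.3 and 97.9 at 2 months in MRflox, and rose by 1.48 (SE 0.415, adjusted p = 0.0192). The groups overlapped for Cckbr, through replicate 1 at 1 month. In cardioMRKO the differences were 0.56 for Gast (adjusted p = 0.0794) and −0.87 for Cckbr (adjusted p = 0.209). Between genotypes Cckbr differed by 1.14 at 1 month (adjusted p = 0.686) and −1.21 at 2 months (adjusted p = 0.126), and Gast by −0.04 and −0.66 (adjusted p = 1.00 and 0.0719).

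Cckar, the receptor that prefers cholecystokinin, was well above background on 10 of 16 arrays. At 1 month it was detected on 1 array of each genotype: MRflox replicate 4, at a signal of 27.8, and cardioMRKO replicate 1, at 72.7. These were also the 2 arrays of that age with the highest mean level of the 6 airway genes, 2.93 and 2.05, against −6.16 to −0.53 on the other 6. At 2 months Cckar was detected on all 8 arrays, at 17.2 to 131, and the airway mean was 0.19 to 5.47. The brightest array for Cckar, MRflox replicate 4 at 2 months, had the highest airway mean. With undetected arrays at the dimmest signal well above background, Cckar was at least 5.13-fold higher at 2 months in MRflox and at least 1.83-fold higher in cardioMRKO. The fit on the signals as measured called it in MRflox (adjusted p = 0.0126) and not in cardioMRKO (adjusted p = 0.332). With the airway mean as a covariate its fitted differences were 0.44 (adjusted p = 0.779) in MRflox and 0.012 in cardioMRKO, on the same partly undetected arrays. Without both 1-month arrays of high airway level no 1-month array was detected, and the bounds were 6.75-fold in MRflox and 2.75-fold in cardioMRKO.

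In MRflox all 3 genes of this small list were called higher at 2 months, beside 16.7% of all genes. Cckar entered the fit only through its 2-month groups, where it is high, so nothing is read from that count. In the other comparisons none of the 3 was called. The Gast call held with the covariate (adjusted p = 0.0209) and that of Cckbr did not (1.65, adjusted p = 0.126). The Cckbr difference was larger with the covariate than the 1.48 without it, and in MRflox the covariate largely went with age. The Cckbr call ended too without both 1-month arrays of high airway level (1.26, adjusted p = 0.0659), without scaling (adjusted p = 0.0548), without MRflox replicate 3 or 4 at 1 month (adjusted p = 0.0610 and 0.0646) and without replicate 1 at 2 months (adjusted p = 0.0546). Of the other calcitonin family genes, 3 of 4 were on the arrays, and only Crcp, a component named for the CGRP receptor, could be tested; it was not called in any comparison (adjusted p 0.529 to 1.00).

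The receptors built on Calcrl couple mainly to Gs and cyclic AMP. Of 28 coupling and cyclic AMP genes, none was called between genotypes, and the median difference was 0.03 at 1 month and 0.04 at 2 months, against 0.02 and −0.08 for all genes. Between ages 2 were called lower in each genotype and none higher, beside 5.91% of all genes called lower in MRflox and 4.93% in cardioMRKO. In MRflox these were Adcy6, a main adenylyl cyclase of cardiomyocytes, which fell by 0.60 (SE 0.105, adjusted p = 0.00123), and the cyclic AMP-responsive transcription factor Crem, which fell by 0.52 (SE 0.151, adjusted p = 0.0239). In cardioMRKO they were Arrb2, a β-arrestin that ends receptor signalling, which fell by 0.61 (SE 0.137, adjusted p = 0.0122), and Adcy6, which fell by 0.39 (SE 0.105, adjusted p = 0.0314). The median of the list was −0.10 and −0.12, against 0.07 and 0.00 for all genes. The Crem call and the Adcy6 call in cardioMRKO each ended on leaving out any of 5 of the 8 arrays concerned, and the Adcy6 call in MRflox with the airway covariate (adjusted p = 0.0564).

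Of 17 tested genes that process peptide hormones or fill secretory granules, none was called between genotypes at 1 month. At 2 months Furin, a proprotein convertase, was lower in cardioMRKO, with a difference of −0.37 (SE 0.0784, adjusted p = 0.0208) that turned to 0.023 without scaling between arrays. It was the 1 gene of the 17 called there, beside 3.53% of all genes. Between ages in MRflox 2 of the 17 rose, beside 16.7% of all genes called higher. These were the convertase Pcsk2, by 1.39 (adjusted p = 0.00896), and the convertase inhibitor Pcsk1n, by 0.76 (adjusted p = 0.0143). In the same hearts 2 fell, the convertase Pcsk7 by 0.37 (adjusted p = 0.00832) and the carboxypeptidase Cpm by 0.64 (adjusted p = 0.0393), beside 5.91% of all genes called lower. The Cpm call ended in 3 of 14 settings and on leaving out any of 6 of the 8 arrays. In cardioMRKO Furin alone was called, at −0.30 (adjusted p = 0.0249), beside 4.93% of all genes called lower. This call ended in 6 of 14 settings and on leaving out any of 5 arrays. Of 15 peptidases that degrade such peptides, none was called between genotypes. In MRflox Mme, which cleaves natriuretic and other small peptides, rose by 0.86 (adjusted p = 0.0233), and Prcp fell by 0.58 (adjusted p = 0.00829). Prcp, a carboxypeptidase, also fell in cardioMRKO, by 0.71 (adjusted p = 0.0059). With the airway covariate, which largely went with age, Pcsk2 (1.02), Pcsk1n (0.50), Mme (0.60) and Prcp (−0.45) did not pass in MRflox (adjusted p 0.225 to 0.394).

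Among 20 tested genes of other vasoactive and neural peptides, Agt, the angiotensinogen gene, was called between genotypes. All genes called were 0.0947% at 1 month and 3.53% at 2 months. Agt was lower in cardioMRKO, with differences of −1.01 (SE 0.140, adjusted p = 0.0108) at 1 month and −0.54 (SE 0.140, adjusted p = 0.0486) at 2 months. The second call ended on leaving out any of 7 of the 8 arrays and in 8 of 14 settings. Without scaling that difference was −0.14 (adjusted p = 0.467). The 1-month call ended without both arrays of high airway level (−1.03, adjusted p = 0.0910). Between ages 6 of the 20 were called higher and 2 lower in MRflox, beside 16.7% and 5.91% of all genes, and 5 were called higher and 2 lower in cardioMRKO, beside 5.32% and 4.93%. The opioid peptide gene Penk rose by 0.94 in MRflox (adjusted p = 0.00282). The neurotensin gene Nts fell by 0.82 in MRflox and by 1.04 in cardioMRKO (adjusted p = 0.00354 and 0.00194). Apln, which encodes the vasodilator apelin, was the other gene that fell in both, by 0.62 in MRflox (adjusted p = 0.0317) and by 1.06 in cardioMRKO (adjusted p = 0.00355). Sst, the somatostatin gene, was well above background on no 1-month array and on all 4 MRflox arrays at 2 months, at least 1.28-fold higher. Of 23 tested receptors of such peptides, 5 were called higher and 1 lower in MRflox at 2 months, beside the same 16.7% and 5.91%. Crhr1, a receptor of corticotropin-releasing hormone, rose by 1.53 (adjusted p = 0.000792) and the substance P receptor Tacr1 by 1.27 (adjusted p = 0.0012), with Vipr1, Ntsr1 and Galr2 the other 3, and the apelin receptor Aplnr fell by 0.89 (adjusted p = 0.0432). In cardioMRKO the galanin receptor Galr2 alone was called, higher by 1.05 (adjusted p = 0.0286), beside 5.32% of all genes called higher. Its call ended on leaving out any of 5 of the 8 arrays. No receptor was called between genotypes at either age.

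Markers of cells that could hold these transcripts are given by their own values, since whole hearts include nerve, vessel, epithelium and blood. Of 7 sensory neuron markers on the arrays, 3 or 4 were well above background on every array of a 1-month group and 4 or 5 at 2 months. Their summed level was 0.41 to 0.50 and 0.45 to 0.75 times the 75th percentile in MRflox and cardioMRKO at 1 month, and 0.66 to 1.02 and 0.42 to 0.75 times at 2 months, so that the groups overlapped at 1 and at 2 months. For 8 markers of pulmonary neuroendocrine cells, which make CGRP in the airway, the sum was 1.38 to 1.79 and 1.53 to 2.03 times at 1 month and 1.37 to 2.06 and 1.57 to 1.69 times at 2 months. For 6 thyroid markers it was 1.12 to 1.90 and 1.28 to 1.74 times at 1 month and 1.09 to 1.69 and 1.14 to 1.44 times at 2 months, and 3 of the 6 were not well above background on any array of either 1-month group. None of these markers was called between genotypes. Between ages in MRflox, 2 of 5 tested sensory neuron markers were called higher, beside 16.7% of all genes. These were Scn10a, which rose by 0.57 (adjusted p = 0.0445), and Pou4f1, which rose by 0.97 (adjusted p = 0.0329). None of the 5 was called in cardioMRKO, beside 5.32% of all genes called higher. Scn11a was well above background on no array of 3 groups, the exception being cardioMRKO at 1 month. Of the other marker lists, 1 of 7 tested neuroendocrine, 1 of 4 thyroid and 2 of 6 autonomic neuron markers were called higher in MRflox, beside 16.7% of all genes. In cardioMRKO it was none, 1 and 1, beside 5.32%. The thyroid marker was Tshr, at least 2.18-fold higher in MRflox and 1.91-fold in cardioMRKO, and the autonomic markers were Dbh and Chat in MRflox and Chat in cardioMRKO. Of 6 airway markers 5 were called higher in MRflox, beside the same 16.7%, with a median difference of 7.14. In cardioMRKO none was called, beside 5.32%, with a median of 3.24. The part of any of these cells in the Calca and Cck values was not tested.

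Within groups, the 1-month array of MRflox with high airway genes had a Calca signal of 10.7, inside the range of 9.89 to 13.7 of its group, and the cardioMRKO array had 35.7, inside 25.7 to 52.7. Without both arrays the genotype difference at 1 month was 1.56 for Calca and 1.01 for Cck, against 1.54 and 1.03 with them, and with the airway mean as a covariate it was 1.62 and 1.10. Cardiomyocyte markers, all 8 well above background on every array, were summed to 1879 to 2149 times the 75th percentile in MRflox and 1553 to 1836 times in cardioMRKO at 1 month, and to 1795 to 1985 and 1477 to 2147 times at 2 months. At 1 month the genotypes thus did not overlap in this sum, MRflox being higher, and its part in the results was not tested.

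Over the 16 arrays, the genes with a symbol whose level was most like that of Calca were Rnf208 (Pearson r = 0.89), BC048679 (0.88), Phlda3 (0.87), 9230112J17Rik (0.85) and Olfr1341 (0.84). For Cck they were Myh7, the β myosin heavy chain (0.88), Prmt2, an arginine methyltransferase (0.85), Rimkla (0.84), Ndnf (0.81) and Mdga1 (0.81). Such an r over levels is set in large part by the 4 group means, and slide, scaling and group are shared. Over the deviations of arrays from their group means the most like genes were others: Tnfrsf9 (0.81), Tmsb15a (0.78), Gc (0.74), Slc45a2 (0.74) and Clk3 (0.74) for Calca, and Olfr1309 (0.90), Arpc3 (0.87), Megf11 (0.86), Olfr93 (0.85) and Glt8d1 (0.84) for Cck. Calca and Cck had an r of 0.62 over levels and of 0.27 over deviations. For Cck and Myh7 it was 0.88 and 0.18, and Myh7 differed between genotypes by 3.44 at 1 month and 3.16 at 2 months.

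The size of the Calca and Cck differences depended on how the signals of dim spots were processed. The normexp setting changed the background correction, added a constant and used median spot signals in place of processed signals. The parts of these changes were not tested apart. With normexp background correction, which adds a constant of 50 to the signal and so compresses dim probes, Calca differed between genotypes by 0.42 at 1 month and −0.025 at 2 months, and Cck by 0.40 and 0.049. In the absence of scaling between arrays, the 2-month differences were larger, 0.87 for Calca and 1.01 for Cck. Leaving out any 1 array gave 1.35 to 1.62 for Calca and 0.92 to 1.13 for Cck at 1 month, and 0.35 to 0.54 and 0.55 to 0.73 at 2 months.

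**Figure D5:**
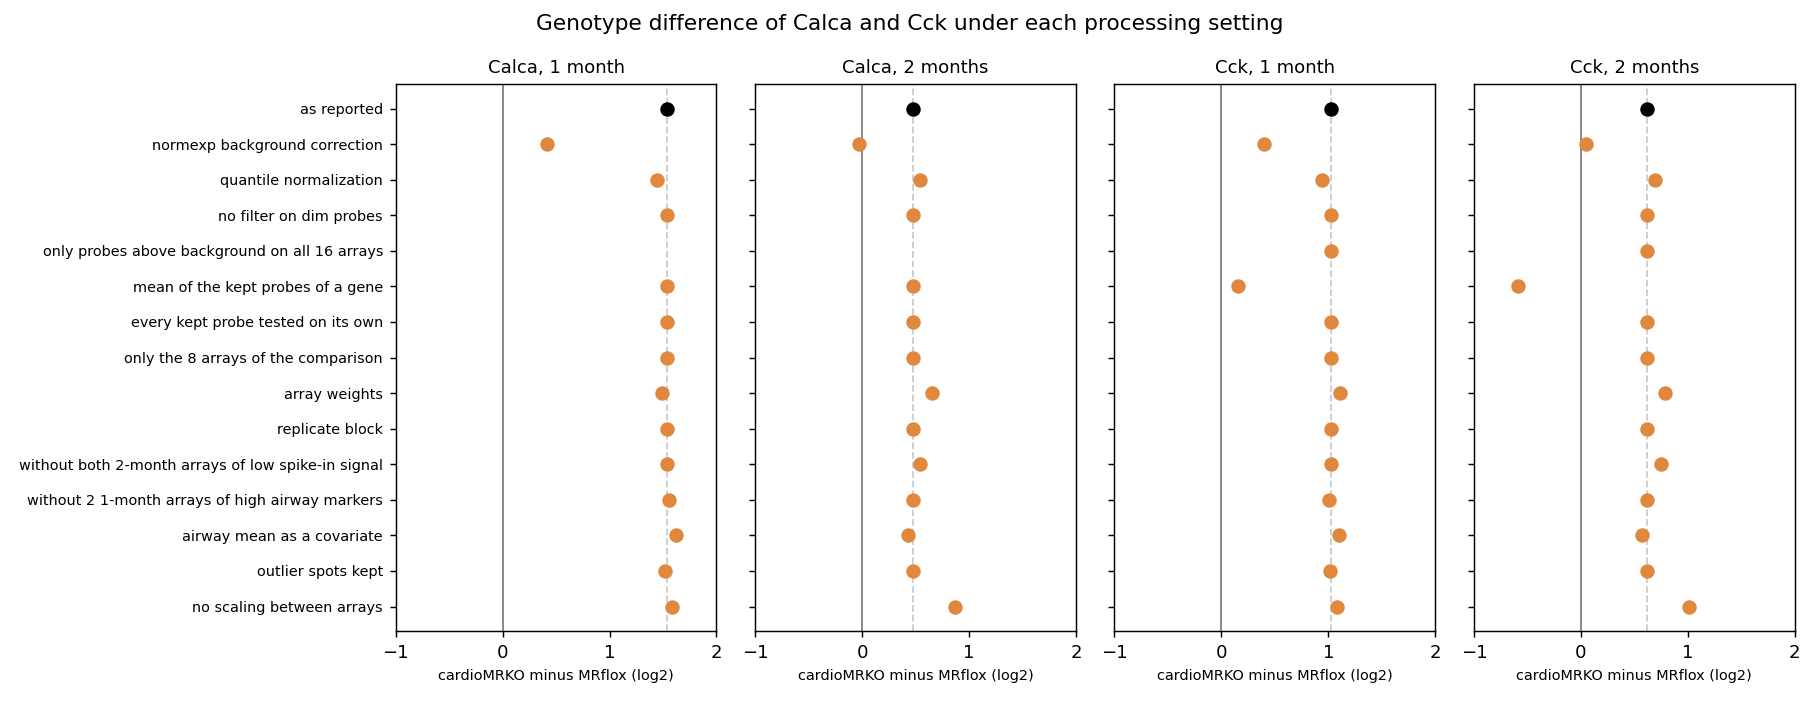
Genotype difference (cardioMRKO minus MRflox, log2) of Calca and Cck at 1 month and at 2 months under each processing setting named on the left; the black point and dashed line are the value as reported, and the solid line marks 0. Normexp correction brings every value to 0.42 or less, and averaging the probes of the gene takes Cck to −0.58 at 2 months; Calca has no value where only probes above background on all 16 arrays were used.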

How the data were processed

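RNA of 16 mouse hearts was hybridised singly to 1-colour Agilent arrays. The authors deposited 1 scanner file per array, from which the intensity columns were used: the processed signal (gProcessedSignal), its error, and median spot and background signals. Feature Extraction is given as version 12.0.0.7 per the file headers and 9.5 per the submitters' processing notes. The deposited value table held the same processed intensities.

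Control spots were left out, outlier spots set missing, spots of a probe averaged on the log2 scale, and each array scaled to its 75th percentile. A probe was kept if some group had it well above background on its 4 arrays and no group lacked more than 1 value (27278 of 41174 probes), and the probe with the highest mean stood for a gene. limma 3.58.1 in R 4.3.3 was fitted to the 16 arrays together, 1 mean for each group and 12 residual degrees of freedom, with Benjamini-Hochberg adjustment over 20056 genes at a threshold of 0.05; "called" and "rose" or "fell" mean past it. Exact permutation tests of 4 against 4 are two-sided and reach 0.0286 at best. Of the deposited probes 28223 had a symbol through RefSeq. Intervals are 95%. The procedure was tested on simulated data.

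Members, gene lists and marker lists were chosen with earlier results of these data known. Named list genes are called ones of smallest p, up to 4 per list and comparison, with genes of a count of 5 or fewer. The 5 genes most like Calca or Cck are those of highest Pearson r. The normexp alternative used median spot signals in place of the planned mean signals; the bounds for partly detected probes (undetected arrays at the dimmest signal well above background) were chosen after seeing the data, and the other alternatives are listed with their effect in the closing section. Replicate numbers matched slide positions and did not pair the samples (correlations of deviations −0.31 to 0.36). Every probe of the members is reported; some other items are not reported here. The arrays' number limits the precision. Genome positions of probes were not used, since the array design names build mm9 and the annotation GRCm38.p6.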

Additional observations from a re-analysis of the deposited data

Results flagged for a closer look

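Replicate 3 of cardioMRKO at 1 month stood apart from the other 3 arrays of its group for the Calca probe that represents the gene. Its signal was 52.7 against 25.7 to 35.7, and the gap to the nearest array was 0.853 of the group's range, above the critical value of Dixon's test. Of 48 sets of 4 arrays examined over the members' probes, 1 was apart in this way, and chance marks about 1 in 20.

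The second Calca probe, which entered no test, had a median signal of 12.2 in cardioMRKO at 2 months, with 3 of 4 arrays well above background. In MRflox of that age the median was 6.88, with 1 of 4 arrays well above background, and the groups overlapped.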

How the results depend on the processing

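With 4 arrays a group their number limits the precision, and for the dim Calca and Cck normexp correction, which adds a constant to every signal, gave differences between genotypes of 0.42 for Calca and 0.40 for Cck at 1 month, and of −0.025 and 0.049 at 2 months. Slide as a block could not be run, since each slide held 1 group. Under a filter that kept a probe only when all 16 arrays were above background, Calca, Calcb, Gast and Cckar gave no value.

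Genes called between genotypes at 1 month were 19, and 12 with normexp, 10 with only the 8 arrays, 379 with array weights, 30 without both low spike-in arrays, 8 without both 1-month arrays of high airway level and 8 without scaling (chosen after seeing the data), and 7 to 18 with 1 array left out. At 2 months they were 707, and 439 with no filter, 96 with 8 arrays, 404 without low spike-in arrays, 446 with the airway covariate, and 304 to 877 with 1 array left out. Between ages they were 4543 in MRflox, and 1355 with the covariate. In cardioMRKO they were 2055, and 1250 with normexp, 5307 with weights, 3978 without low spike-in arrays, 1341 without scaling, and 1243 to 2585 with 1 array left out. Members called between ages in MRflox were 2, and 1 under the stricter filter, with 8 arrays and with the covariate. In cardioMRKO they were 1, and 0 with no filter, without high airway arrays and without scaling, 3 with weights, 2 without low spike-in arrays, and 0 to 2 with 1 array left out. The cause of these changes was not tested. Where arrays were left out the fit also held fewer samples, and counts went both down and up.

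The share of called genes that were higher went, with normexp, from 52.6% to 41.7% and from 43.8% to 24.9% between genotypes at 1 and 2 months, and from 51.9% to 35% between ages in cardioMRKO. With quantile normalization it went from 73.9% to 62.6% between ages in MRflox. 

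Among differences with a test, and for Cck between genotypes, signs turned as follows. With normexp Calcb was 0.045 and −0.11 between ages in MRflox and cardioMRKO, and Adm −0.059 and Ramp1 −0.037 in MRflox. With quantile normalization Calcb was −0.13 in cardioMRKO. With the mean of probes Cck was −0.58 between genotypes at 2 months. With weights Gast was 0.041 between genotypes at 1 month, Adm −0.050 between ages in MRflox, and Calcb −0.016 and Ramp1 0.069 in cardioMRKO. Without low spike-in arrays Cckar was 0.079 between genotypes at 2 months, Ramp1 −0.045 in MRflox, and Calcb −0.0050 and Ramp1 0.089 in cardioMRKO. With the covariate Ramp1 was −0.25 and Ramp3 0.042 in MRflox. Without scaling Gast was 0.012 between genotypes at 1 month, Furin 0.023 at 2 months, and Adm −0.12 and Ramp1 −0.13 in MRflox. With 1 array left out the ranges across 0 included −0.16 to 0.081 for Gast between genotypes at 1 month, −0.045 to 0.31 for Ramp1 and −0.089 to 0.070 for Ramp3 between ages in MRflox, and −0.038 to 0.23 for Calcb and −0.27 to 0.089 for Ramp1 in cardioMRKO.

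Differences given without a test also changed sign. Between genotypes at 2 months these were Calca −0.025 and Calcb −0.18 with normexp, Adm 0.22, Ramp1 0.28, Ramp2 0.26 and Ramp3 0.20 without scaling, Ramp1 0.15 and Ramp2 0.075 with weights, and Calcrl −0.021, Ramp1 0.24 and Ramp2 0.15 without low spike-in arrays. At 1 month they were Adm −0.0071 with normexp and Ramp1 −0.0065 with the covariate. Between ages Cck was −0.18 with quantile normalization and −0.13 without scaling in MRflox, and 0.24 with the mean of probes in cardioMRKO.

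With the replicate number as a replicate block, 20 and 1052 genes were called between genotypes and 4712 and 2302 between ages. Ramp2 then passed in MRflox (adjusted p = 0.0391), and Gast and Cckbr passed between genotypes at 2 months and between ages in cardioMRKO (adjusted p 0.00831 to 0.0476). The numbers do not pair the samples.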
